A study of Rattus norvegicus with 2 samples.

Results

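The interleukins and their receptors were described in rat retina after ischemia-reperfusion (IR) injury, in which blood flow to the eye is stopped and then restored. The genes were taken by name, as all rows of the deposited gene table whose symbol begins with Il followed by a digit, and 80 of 32662 genes met this rule. They are 40 ligands, antagonists and binding proteins, 39 receptor genes, among them the shared signalling chain Il6st, and Il4i1, an enzyme that carries the name only. RNA was sequenced from 2 retinal samples of Long-Evans rats aged 2 months, which were female by the methods of the study. The control library (CTRL) came from retina after a sham procedure, and the injured library (IR12) from retina taken 12 hours after reperfusion. Both were stranded, rRNA-depleted, single-end libraries. With 1 library per group, no difference has a replicate check and no test was made.

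Interleukins are secreted proteins through which leukocytes, glia and other cells signal to each other. Most bind a receptor of 2 or more chains, and several families share a chain, such as gp130 (Il6st) for the IL-6 family and the common gamma chain (Il2rg) for the IL-2 family. Decoy receptors and receptor antagonists limit the IL-1 family, whose ligands IL-1 alpha and IL-1 beta are early mediators of inflammation in injured nervous tissue, the retina included.

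The labelled tissue was checked against its markers. Gnat1, the alpha subunit of rod transducin, had an FPKM (a read density corrected for gene length and library size) of 4027 in CTRL against 4237 in IR12, and 5 of 5 listed photoreceptor and neuron genes found in the table had an FPKM of at least 1. Their summed FPKM was 5005 in CTRL against 5023 in IR12. Photoreceptor genes were thus high in both libraries, but 4 lens genes summed to 52.0 in CTRL against 6.16 in IR12, so the libraries also differed in lens RNA. In whole tissue, fewer cells of a type and less RNA per cell cannot be told apart.

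Of the 80 genes, 13 were listed at 0 in both libraries and 67 were above 0 in at least 1. All 37 mitochondrial rows of the table were also listed at 0, and a 0 in this table need not mean that no RNA was present. FPKM reached 1 in either library for 29 of the 67 genes. The other 38 stayed under 1 in both libraries, up to 0.563 in CTRL (Il17re) and 0.722 in IR12 (Il10ra), with log2 ratios between -0.63 and 0.46. Each difference is a log2 ratio of (FPKM + 1) with IR12 as the numerator, and the added 1 makes differences of low genes look smaller. Where a pair of FPKM values is given without library names, the first is that of CTRL and the second that of IR12.

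On the deposited scale, 15 of the 67 genes (22.4%) were higher in IR12 by 2-fold or more. Over all 19100 genes above 0 in at least 1 library, this share was 4.67%. They were the ligands and antagonists Il1a, Il1b, Il1rn, Il6, Il11 and Il17d, and the receptor genes Il1r2, Il1rap, Il6r, Il6st, Il23r, Il2rg, Il4r, Il17ra and Il17rb. Lower by at least 2-fold were 2 genes (2.99%), Il15 and Il1rapl1, a share near that of 4.36% over all genes. At least 4-fold higher were 5 genes (7.46%), Il1a, Il1b, Il1rn, Il1r2 and Il23r, beside 1.36% of all genes, and 0 were 4-fold lower, beside 1.41%. Il1a lay just past this limit, and centring on the median gene took its log2 ratio to 1.98 and left 4 genes (5.97%) higher and 0 lower, beside 1.34% and 1.45% of all genes. Over the 67 genes the median log2 ratio was 0.09, beside 0.02 over all genes. With a pseudocount of 0.1 in place of 1 it was 0.42, beside 0.05 over all genes, and 26 genes (38.8%) were at least 2-fold higher and 5 (7.46%) lower, beside 10.9% and 9.36%.

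The summed FPKM of all genes was 1402321.3 in CTRL against 895200 in IR12. Rescaled to the same sum (TPM scale), ratios moved up, and the median over all genes moved from 0.02 to 0.38. The median over the 67 genes was 0.17 on that scale, below that over all genes, whereas it lay above it as deposited. On that scale 16 of the 67 genes (23.9%) were at least 2-fold higher, beside 14.8% of all genes, and 0 were at least 2-fold lower, beside 2.28%. The 15 higher genes were again among the 16, with Il1r1 added, while the excess over the other genes was smaller and Il15 and Il1rapl1 were no longer 2-fold lower. At least 4-fold higher on that scale were 9 genes (13.4%), beside 2.21% of all genes, with Il2rg (2.17), Il6st (2.11), Il17rb (2.02) and Il4r (2.02) added to the 5, and 0 were 4-fold lower, beside 0.942%. Among the 29 genes that reached FPKM 1, the direction of Il11ra1, Il12a, Il23a, Il33, Il34 and Il3ra turned on the TPM scale, and among the lower genes that of Il17re.

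**Figure D1:**
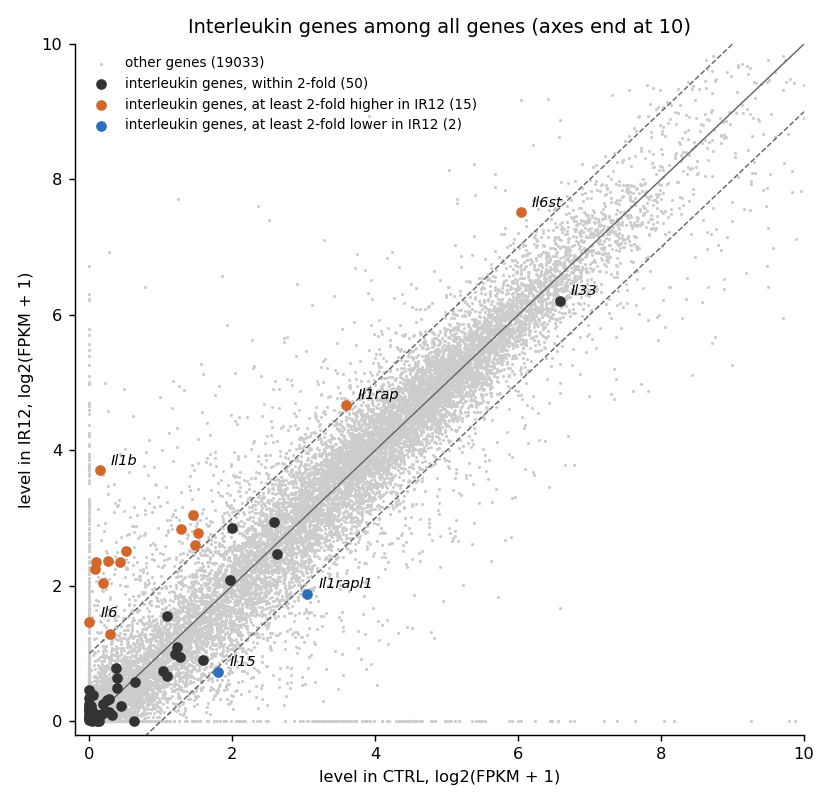
Level of each gene above 0 in at least 1 library, as log2(FPKM + 1), in CTRL (horizontal axis) and in IR12 (vertical axis), with 1 library each; the solid line marks equal levels and the dashed lines 2-fold differences, and 93 genes beyond 10 on either axis are outside the plot. The 15 interleukin genes at least 2-fold higher in IR12 lie above the upper dashed line, Il15 and Il1rapl1 lie below the lower one, and Il6st and Il33 have the highest levels of the interleukin genes.

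The IL-1 family held the largest difference. Il1b, which encodes the secreted cytokine IL-1 beta, had an FPKM of 0.109 in CTRL against 12.1 in IR12, a log2 ratio of 3.56. Il1a, which encodes IL-1 alpha, had 0.428 and 4.74, a log2 ratio of 2.01. Il1a and Il1b were low in the sham retina and well above 1 in the injured one. The ratio of Il1b to Il1a was 0.254 in CTRL against 2.55 in IR12. The order of their levels in CTRL is uncertain, since Il1b there lay near the value of 1 read, as described below. The genes are neighbours, 40176 bp apart on chromosome 3 of rn6.

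Promoters are shown for these ligands and for Il6 and Il11, to place regulatory sequence beside their values. Il6 and Il11 are the gp130 family ligands with an interleukin name that were at least 2-fold higher. The 4 genes were chosen after their values and motif matches were seen. Each sequence covers the 250 bases before the start of the gene and comes from RefSeq (GRCr8), where Il1a lies at chr3:136990018-136990267, Il1b at chr3:137036582-137036831 and Il6 at chr4:5894576-5894825, each on the minus strand, and Il11 at chr1:78098372-78098621 on the plus strand. Capitals mark matches, on either strand, to the motifs named NF-kB, STAT (TTCNNNGAA), AP-1 (TGANTCA), C/EBP (TTGCNNAA) and CRE (TGACGTCA).

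Il1a: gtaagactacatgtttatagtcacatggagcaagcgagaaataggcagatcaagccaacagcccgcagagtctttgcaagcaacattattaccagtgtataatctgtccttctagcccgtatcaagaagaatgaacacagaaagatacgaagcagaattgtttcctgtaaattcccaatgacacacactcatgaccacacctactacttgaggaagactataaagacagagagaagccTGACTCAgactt
Il1b: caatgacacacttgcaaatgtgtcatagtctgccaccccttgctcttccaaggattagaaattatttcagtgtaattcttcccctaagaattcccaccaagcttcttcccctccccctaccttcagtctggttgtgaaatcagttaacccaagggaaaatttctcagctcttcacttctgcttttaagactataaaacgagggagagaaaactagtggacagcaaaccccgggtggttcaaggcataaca
Il6: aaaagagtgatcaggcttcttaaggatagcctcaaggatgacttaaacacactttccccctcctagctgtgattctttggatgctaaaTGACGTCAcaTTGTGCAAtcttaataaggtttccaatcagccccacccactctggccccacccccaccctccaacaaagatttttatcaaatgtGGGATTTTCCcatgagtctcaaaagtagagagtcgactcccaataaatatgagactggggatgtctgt
Il11: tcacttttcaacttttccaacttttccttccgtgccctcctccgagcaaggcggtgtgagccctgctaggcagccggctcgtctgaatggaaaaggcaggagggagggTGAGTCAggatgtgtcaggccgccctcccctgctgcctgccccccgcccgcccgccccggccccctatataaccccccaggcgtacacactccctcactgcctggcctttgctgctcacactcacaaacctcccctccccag

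The Il1a sequence held an AP-1 match that began 12 bases before the start, and the Il11 sequence held one 142 bases before it. In Il6 an NF-kB match began 68 bases, a C/EBP match 152 bases and a CRE match 162 bases before the start. None of the 5 motifs was found in the Il1b sequence, which says only that these letters are not in this window. Of 27457 promoters, 6.41% held the NF-kB motif, 7.52% STAT, 6.36% AP-1, 9.20% C/EBP and 1.70% CRE. A window was at hand for 63 of the 80 genes, and 13 of the 15 genes at least 2-fold higher had one: 2 held NF-kB (Il1rap and Il6), 2 AP-1 (Il1a and Il11), 2 C/EBP (Il23r and Il6), 1 CRE (Il6) and 0 STAT. Both 2-fold lower genes had one, and Il15 held AP-1. Over the 63 windows the shares were 12.7% for NF-kB, 9.52% for STAT, 9.52% for AP-1, 12.7% for C/EBP and 3.17% for CRE. A match describes letters, not a used site.

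Il1rn encodes the receptor antagonist, which occupies the IL-1 receptor without signalling. It had an FPKM of 0.0706 in CTRL against 4.09 in IR12, a log2 ratio of 2.25. Like the agonists, the antagonist was higher in IR12, and within IR12 its level was 0.339 times that of Il1b. The low values in CTRL limit the size of these differences. Among olfactory receptor genes with a locus of 939 bp, the lowest repeated FPKM, taken as that of 1 read, was 0.0881 in CTRL against 0.0516 in IR12, so Il1b, Il1rn and Il1r2 in CTRL lay near the value that 1 read gives a gene of that length. Il17rb (0.142), Il23r (0.194) and Il11 (0.221) were little above it in CTRL, and Il6 was at 0. Read counts and transcript lengths of the interleukin genes were not used here.

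Other ligands of the family differed less. Il33, an alarmin stored in the nucleus that acts through Il1rl1, had an FPKM of 95.1 in CTRL against 73.1 in IR12. Its log2 ratio was -0.37 as deposited and 0.27 on the TPM scale, so its direction depended on the scale. It had the highest level of any interleukin gene in CTRL, and its receptor gene Il1rl1 had 0.139 and 0.189. Il18, which is activated by the same protease as IL-1 beta, had 1.13 and 1.94, at a locus that overlaps Bco2 and Tex12, and its binding protein Il18bp had 4.97 and 6.70. Neither reached 2-fold on either scale. Of the other 5 ligands and antagonists of the family (the Il36 genes and Il1f10), 1 was listed at 0 in both libraries, and the others stayed under FPKM 1.

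Among the IL-1 family receptors, Il1r1, the signalling receptor, had an FPKM of 2.99 in CTRL against 6.21 in IR12. Its log2 ratio was 0.85 as deposited, 1.34 on the TPM scale and 1.03 with a pseudocount of 0.1. Il1r2, a decoy that binds IL-1 without signalling, had 0.0525 and 3.75, a log2 ratio of 2.17. The decoy was at 0.0175 times the level of Il1r1 in CTRL and at 0.604 times in IR12. The ratio in CTRL is uncertain, because Il1r2 there lay near the value of 1 read. Il1rap, the accessory chain of the IL-1 and IL-33 receptors, had 11.1 and 24.5, a log2 ratio of 1.08 as deposited and 1.67 on the TPM scale. The ratio of Il1rap to Il1r1 was 3.70 in CTRL against 3.95 in IR12, so these chains kept a similar proportion.

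The receptor genes Il1r2, Il1r1, Il1rl2, Il1rl1, Il18r1 and Il18rap lie side by side at chr9:46840992-47258503 (rn6). Il1r2 and Il1r1, at one end of this row, were the ones with an FPKM of at least 1 in either library. The 4 genes that follow had log2 ratios of at most 0.21 (Il18rap, which had 1.27 with a pseudocount of 0.1), and the highest FPKM among them was 0.189 (Il1rl1 in IR12). Il1rapl1, a synaptic adhesion protein of the same family that does not bind IL-1, differed the other way, with 7.28 in CTRL against 2.69 in IR12. Its log2 ratio was -1.16 as deposited and -0.63 on the TPM scale, and another listed gene lies in its locus.

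**Figure D2:**
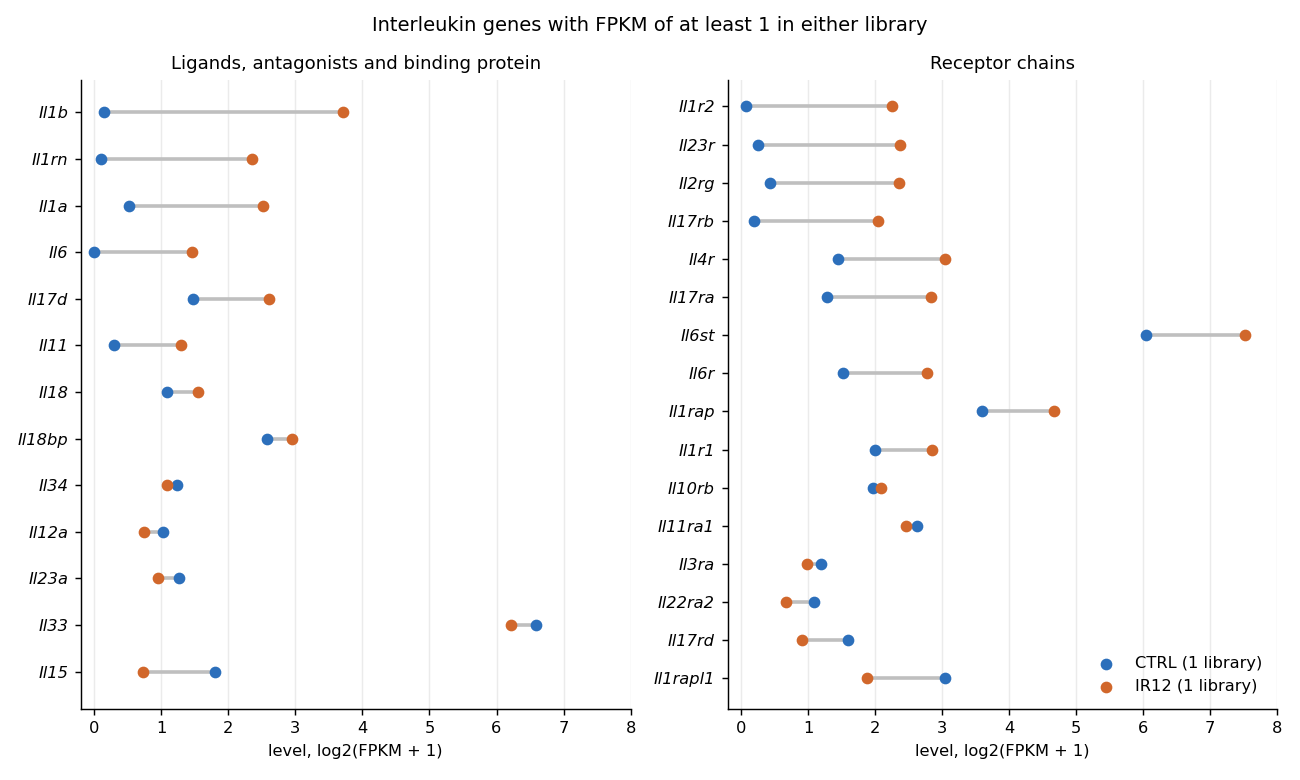
Levels of the 29 interleukin genes with an FPKM of at least 1 in either library, as log2(FPKM + 1) on the horizontal axis, for CTRL (blue) and IR12 (orange), with 1 library each and a grey line joining the libraries; ligands, antagonists and the binding protein are on the left and receptor chains on the right. Within each panel genes are ordered by their log2 ratio, from Il1b (3.56) to Il15 (-1.07) and from Il1r2 (2.17) to Il1rapl1 (-1.16).

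In the gp130 family, Il6, the cytokine that drives the acute-phase response, was listed at 0 in CTRL and had an FPKM of 1.76 in IR12. Il11 had 0.221 and 1.45, a difference just past 2-fold that centring on the median gene took below it. The other 2 ligands of the family with an interleukin name were listed at 0 in both libraries. Levels of the ligands were low in both libraries when set beside their receptor chains.

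Il6st encodes gp130, the chain through which IL-6, IL-11 and the LIF group of cytokines signal. Its FPKM was 64.8 in CTRL against 182 in IR12, a log2 ratio of 1.47 as deposited and 2.11 on the TPM scale. It took 29.7% of the summed FPKM of all interleukin genes in CTRL and 47.8% in IR12, while Il33 took 43.5% and 19.2%. Most of the summed level in either library thus came from these genes, and the sum over all 80 genes was 218 in CTRL against 380 in IR12. Without Il6st and Il33 the sum was 58.6 and 125.

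Il6r, the chain that binds IL-6, had an FPKM of 1.86 in CTRL against 5.84 in IR12, a log2 ratio of 1.26. The ratio of Il6st to Il6r was 34.8 in CTRL against 31.1 in IR12. Il11ra1, which binds IL-11, had 5.16 and 4.53, with a log2 ratio of -0.16 as deposited and 0.37 on the TPM scale, at a locus that overlaps Ccl27. The ratio of Il6st to Il11ra1 was 12.6 in CTRL against 40.1 in IR12, so the chains that bind IL-6 and IL-11 differed unequally. Il31ra, next to Il6st on chromosome 2 at a distance of 21061 bp, was listed at 0 in CTRL, with 0.0388 in IR12.

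Summed over ligands, FPKM was 112 in CTRL against 116 in IR12, or 16.7 and 42.9 without Il33. Summed over receptor genes it was 106 and 264, or 41.6 and 82.0 without Il6st. Il6st thus made up most of the receptor sum in both libraries, and Il33 most of the ligand sum.

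In the IL-12 family, receptor chains that pair with each other had unequal levels. Il23r, the chain specific for IL-23, had an FPKM of 0.194 in CTRL against 4.16 in IR12, a log2 ratio of 2.11. Il12rb1, the chain with which it pairs, was listed at 0 in CTRL, with 0.0189 in IR12. Il12rb2, the neighbour of Il23r at a distance of 62475 bp, had 0.0215 in CTRL and stood at 0 in IR12. Thus 1 of the 3 receptor genes was above FPKM 1.

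Of the ligand subunits, Il23a, specific for IL-23, had 1.41 in CTRL against 0.937 in IR12, and Il12a, specific for IL-12, had 1.04 and 0.668. Their log2 ratios were -0.31 and -0.29 as deposited, and both were near 0 on the TPM scale (0.03 and 0.01). Il12b, the subunit that IL-12 and IL-23 share, was listed at 0 in CTRL, with 0.189 in IR12. With a pseudocount of 1 no ligand subunit of the family was 2-fold higher on either scale, while with 0.1 Il12b had a log2 ratio of 1.53.

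In the common gamma chain group, 2 of 9 receptor genes above 0 were at least 2-fold higher in IR12 on both scales. Over all genes the share was 4.67% as deposited and 14.8% on the TPM scale. Il2rg, the common gamma chain itself, had an FPKM of 0.348 in CTRL against 4.12 in IR12, a log2 ratio of 1.92. The listed locus of Il2rg overlaps 5 other genes, Nlgn3, Med12 and Foxo4 among them, and the strand setting of the counting is not given in the sources used here, so its value may hold reads of those genes. Il4r, the chain that binds IL-4 and takes part in the IL-13 receptor, had 1.74 and 7.25, a log2 ratio of 1.59, with 0 other genes on its locus. The other 7 receptor genes above 0 stayed under FPKM 1 in both libraries, and with a pseudocount of 0.1, 2 of them passed 2-fold, Il13ra1 (1.57) and Il2rb (1.36). For Il13ra1 the listed locus is on chromosome 11, where RefSeq has a pseudogene of that name, while RefSeq places the gene on chromosome X. That listed locus also overlaps Atp13a4.

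Il15, which sustains natural killer cells and memory T cells, had an FPKM of 2.49 in CTRL against 0.663 in IR12. Its log2 ratio was -1.07 as deposited and -0.67 on the TPM scale. It was the ligand of the group that reached FPKM 1, and 3 of the 7 ligands were listed at 0 in both libraries. With a pseudocount of 0.1, Il2 (0.241 and 0.0707) and Il21 (0.544, and 0 in IR12) were also at least 2-fold lower. The listed locus of Il2 overlaps Adad1. Il15ra, which presents IL-15, had 0.204 and 0.259. Il3ra, of the common beta chain group, had 1.30 and 0.981 at a locus that overlaps Asmtl, and both ligands of that group were listed at 0 in both libraries.

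Members of the IL-10 family were within 2-fold on both scales with a pseudocount of 1. With 0.1, Il10ra (0.290 and 0.722) had a log2 ratio of 1.08, and 4 genes listed at 0 in CTRL and under FPKM 1 in IR12 also passed 2-fold. Il10rb, a chain shared by the receptors for IL-10 and IL-22, had an FPKM of 2.92 in CTRL against 3.25 in IR12. Il22ra2, a secreted decoy for IL-22, had 1.13 and 0.594, a log2 ratio of -0.42. Of the 5 ligands, 1 was listed at 0 in both libraries and the other 4 were listed at 0 in CTRL and under FPKM 1 in IR12.

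In the IL-17 family, Il17ra, the chain shared by most IL-17 receptors, had an FPKM of 1.43 in CTRL against 6.15 in IR12, a log2 ratio of 1.56. Il17rb, which binds IL-17B and IL-25, had 0.142 and 3.11, a log2 ratio of 1.85. Il17rd, an inhibitor of fibroblast growth factor signalling that also belongs to the family, had 2.02 and 0.873. Its log2 ratio was -0.69 as deposited, -0.30 on the TPM scale and -1.12 with a pseudocount of 0.1, so its place past 2-fold depended on that choice. Il17d was the ligand of the family above FPKM 1, with 1.77 and 5.10 and a log2 ratio of 1.14. Of the 6 ligands, 3 were listed at 0 in both libraries, and Il17f, at 0 in CTRL and 0.141 in IR12, had a log2 ratio of 1.27 with a pseudocount of 0.1. Il34, a second ligand of the CSF1 receptor, had 1.34 and 1.13 at a locus that overlaps another listed gene, and stayed within 2-fold.

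**Figure D3:**
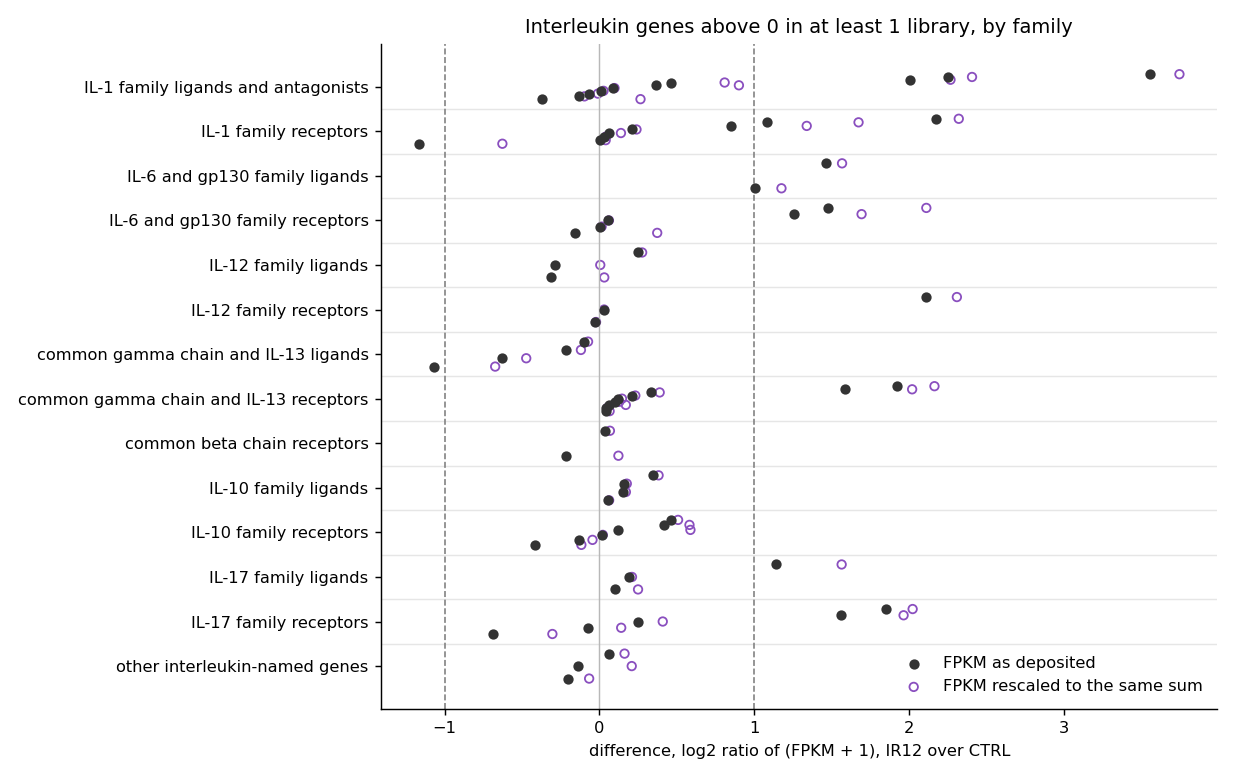
Log2 ratio of (FPKM + 1), IR12 over CTRL, for each of the 67 interleukin genes above 0 in at least 1 library, by family, with FPKM as deposited (filled points) and rescaled to the same sum (open points); dashed lines mark 2-fold. The 5 filled points farthest to the right are Il1b, Il1rn, Il1r2, Il23r and Il1a, and the open points lie to the right of the filled ones, so that Il15 and Il1rapl1 pass the left line as deposited only.

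Signalling partners were taken from lists made of known pathway genes. The lists were chosen with earlier results of these data known, so their shares are a description and not independent evidence. Of the 52 genes found in the table, 14 were higher in IR12 by 2-fold or more and 0 were lower by as much as deposited, while the TPM scale gave 23 and 0. Over all genes the shares were 4.67% and 4.36% as deposited, and 14.8% and 2.28% on the TPM scale. In the list of IL-1 signalling and processing, 2 of 16 genes were at least 2-fold higher as deposited, and 5 on the TPM scale. Myd88, the adaptor of the IL-1 receptor, had an FPKM of 1.70 in CTRL against 12.8 in IR12, and Nlrp3, the sensor of the inflammasome that matures IL-1 beta, had 0.124 and 1.5. Casp1, the protease of that complex, had 0.635 and 1.83, a log2 ratio of 0.79 that was 1.07 on the TPM scale. The kinases and ubiquitin ligases downstream, such as Irak1 (14.5 and 21.1) and Traf6 (9.48 and 9.42), were within 2-fold as deposited, while on the TPM scale Irak1 had a log2 ratio of 1.12.

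In the gp130 list, 5 of 15 genes were at least 2-fold higher as deposited and 7 on the TPM scale. Stat3, the transcription factor that gp130 activates, had 17.7 in CTRL against 120 in IR12, and Socs3, its feedback inhibitor, had 0.393 and 29.1, a log2 ratio of 4.43. Osmr, the receptor chain for oncostatin M, had 0.990 and 26.5. The cytokines Lif and Clcf1 had 0.160 and 6.63, and 0.347 and 14.4. Of the list 4 genes were lower as deposited, among them the cytokines Cntf (22.1 and 17.0), which was above Lif and Clcf1 in both libraries and turned on the TPM scale, and Ctf1 (2.01 and 0.604), with a log2 ratio of -0.91. Among the listed cytokines, Lif, Clcf1 and Cntf thus had higher levels in IR12 than Il6 (1.76) and Il11 (1.45). Ctf1 and Osm (0.356 in IR12), the gene of oncostatin M, had lower ones.

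In the list of common chain and IL-12 partners, 4 of 11 genes were at least 2-fold higher as deposited and 6 on the TPM scale. Jak3, the kinase that binds the common gamma chain, had an FPKM of 0.275 in CTRL against 7.49 in IR12. Cish, an inhibitor induced by STAT5, had 0.700 and 12.7. Csf2rb, the common beta chain, had 0.0207 and 2.78. Tslp, an epithelial cytokine related to IL-7, was listed at 0 in CTRL, with 1.5 in IR12. The IL-17 list held 2 of 6 on both scales, Lcn2, an antimicrobial protein (0.473 and 11.8), and Nfkbiz, an inducible regulator of NF-kB (2.17 and 5.60). The list of IL-34 and the CSF1 receptor held 1 of 4 as deposited, Csf1, with 1.99 and 7.47. On the TPM scale it held 3, with Ptprz1 (1.35) and Sdc1 (1.02) added.

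**Figure D4:**
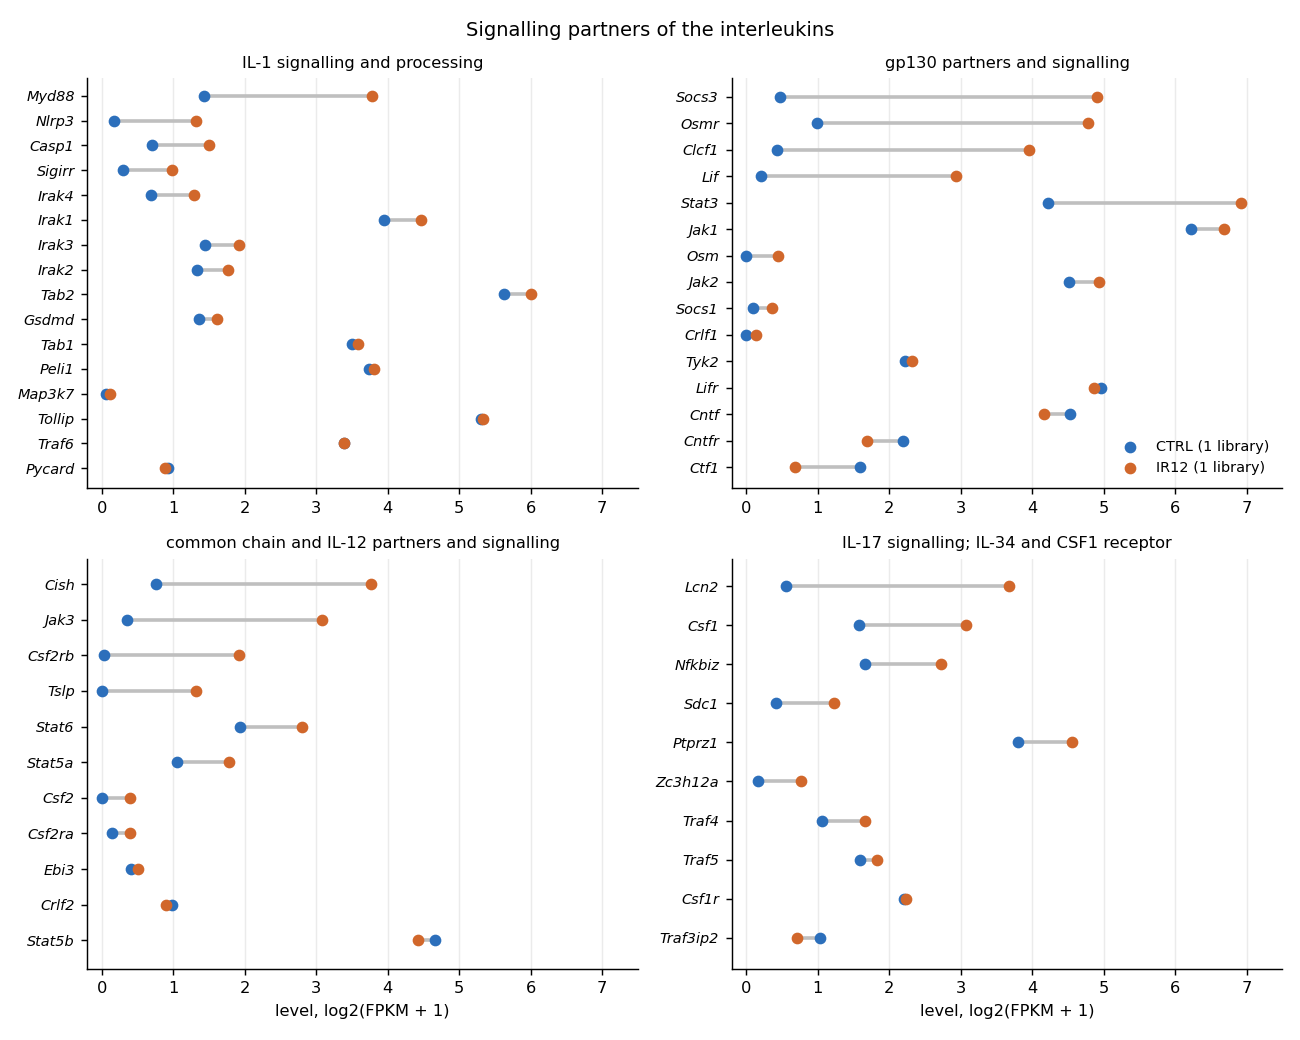
Levels of the 52 signalling partners as log2(FPKM + 1) on the horizontal axis, for CTRL (blue) and IR12 (orange), with 1 library each and a grey line joining the libraries, in panels by list and ordered by log2 ratio. Socs3, Osmr, Clcf1, Lif and Stat3 have the widest gaps in the gp130 panel, and Myd88 in the IL-1 panel.

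Neutrophil and monocyte markers also differed between the libraries. Of 7 neutrophil genes, 3 were at least 2-fold higher (4 on the TPM scale) and their summed FPKM was 0.377 in CTRL against 38.7 in IR12, with S100a9 the most abundant (0.199 and 23.0) and Mpo listed at 0 in both. Ngp was not higher as deposited (0.145 and 0.127). Of 8 monocyte and macrophage genes, 4 were at least 2-fold higher (5 on the TPM scale) and the sum was 11.9 and 90.6, with Lyz2 the most abundant (9.73 and 76.9) and Ccr2 listed at 0 in CTRL. Cd163 (0.131 and 0.0110) and Mrc1 (0.258 and 0.166) were lower as deposited. Neutrophils and monocytes are known to express Il1b, Il1rn, Il1r2, Il4r, Il2rg and Il17ra, and the part of these markers in the interleukin differences was not tested. Of 6 microglial genes, 0 were 2-fold higher or lower as deposited. Their sum was 14.7 and 14.8, with Aif1, the most abundant, at 5.42 and 7.36, while 4 of the 6 were lower in IR12, P2ry12 (1.67 and 0.650) among them. On the TPM scale C1qa turned and 3 of them stayed lower. T cell genes summed to 1.60 and 2.21, with Cd4 the most abundant (1.09 and 1.08) and Cd3d and Cd3e listed at 0 in CTRL and under 0.1 in IR12, and B cell genes to 0.430 and 0.259, with Cd79a listed at 0 in both.

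Of 6 Mueller glia genes, 4 were lower in IR12 by 2-fold or more and 1 was higher as deposited, while the TPM scale gave 3 and 2, and the sum was 1160 in CTRL against 444 in IR12. Glul, the glutamine synthetase of these cells, had 754 and 126, whereas Gfap, a marker of reactive glia, had 2.95 and 21.9. Vim, the most abundant of the list in IR12, was also higher (121 and 221), with a log2 ratio of 0.86 as deposited and 1.51 on the TPM scale. Endothelial genes, of which 2 of 4 were higher as deposited, summed to 9.17 and 9.12, pigment epithelium genes to 85.6 and 103, and red blood cell genes to 28.4 and 52.6. Among the pigment epithelium genes 3 of 4 were lower as deposited, Rpe65 (11.1 and 4.88) by at least 2-fold, and Ttr (61.8 and 87.4) was higher. Among the red blood cell genes Hbb (20.4 and 35.1) and Hba-a2 (6.77 and 17.1) were higher, and Hba-a1 (0.859 and 0.168) and Alas2 (0.334 and 0.196) were lower. The part of these markers in the differences of Il6st, Il33 and Il15 was not tested.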

How the data were processed

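RNA-seq of 2 rat retinal samples, CTRL and IR12, was analysed from the gene table that the authors deposited. The deposited FPKM values were made by the authors from aligned reads, scaled to gene length and library size, with a tool not given in the sources used here. The table holds 1 value per gene and library for 32662 genes, with loci on rn6, and both columns were matched to samples by name. Per the labels, the submitters' processing notes name STAR 2.5.2b, Cuffdiff 2.2.0 and rn6 with no role or order. Whether counting used strand is not given in the sources used here. Overlaps with other listed genes are stated in the text for interleukin genes whose own values are printed. Starts were raised by 1 for printing. Read counts were not used here, but the lowest repeated FPKM of olfactory receptor genes was 1.71 times as high in CTRL as in IR12 at 5 of 6 locus lengths, which gives the relative worth of 1 read.

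Log2 ratios of (FPKM + 1) were computed, with counts of genes past 2-fold over genes above 0 in at least 1 library. With 1 library per group, no test was made. Named are all members that reached FPKM 1 in 1 or both libraries, lower members that are partners of these or belong to the IL-1, IL-6 or IL-12 families, and genes of the pathway and marker lists. Il17re, Il4i1, Ilf2 and Ilk, outside this rule, were added once the values were known. Some genes of the lists are not reported here, and the counts and sums leave them out. The members and lists were chosen with earlier results of these data known. Alternatives were a pseudocount of 0.1, rescaling to the same sum (TPM scale), centring, other filters and folds of 1.5 and 4. The procedures were tested on simulated data. RefSeq gave promoters for 63 of 80 genes. Python 3.11.15, numpy 2.4.6, pandas 2.3.3 and matplotlib 3.10.9 were used.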

Additional observations from a re-analysis of the deposited data

How the results depend on the processing

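A count was taken as changed when it moved by more than 1.5 times, and a log2 ratio when it moved by 0.58 or more. No replicate was left out, since each group has 1 library. No paired analysis was possible with 1 library per group. Of 15 interleukin genes at least 2-fold higher, a pseudocount of 0.1 gave 26 (38.8%, beside 10.9% of all genes) and a limit of 4-fold gave 5, or 9 with rescaling to the same sum and 4 with centring, while centring gave 14, both rescalings and 1.5-fold 16, a mean FPKM of at least 1 gave 13 and all rows 15. Of 2 genes at least 2-fold lower, a pseudocount of 0.1 gave 5, a limit of 1.5-fold gave 4 and 4-fold gave 0, also when rescaled or centred, and rescaling to the same sum gave 0, as did rescaling over loci of at least 1000 bp. That rescaling and the 4-fold limit with rescaling or centring were chosen after seeing the data. A smaller pseudocount or limit admits more genes by construction, and rescaling raises IR12 relative to CTRL. The median log2 ratio of 0.09 became 1.08 with a mean FPKM of at least 1, a filter that keeps 25 genes, some of them through IR12 alone, and lay between 0.04 and 0.42 otherwise. Among the 29 named genes, a pseudocount of 0.1 moved 10 log2 ratios and rescaling to the same sum moved 3 (Il1rap, Il33 and Il6st), while centring and the rescaling over long loci moved 0. Low values in CTRL limit the size of the differences of Il1b, Il1rn, Il1r2, Il6, Il17rb, Il23r and Il11, all of which a pseudocount of 0.1 moved. These CTRL values were at 0, near the value that 1 read gives a locus of 939 bp, or little above it. Loci under 1000 bp held 36.9% of the summed FPKM in CTRL and 23.0% in IR12, and without them the ratio of the sums fell from 1.57 to 1.28. Rescaling over the longer loci gave 16 genes beside 8.96% of all genes, and turned the direction of 2 of the 29 genes (Il11ra1 and Il34) in place of 6. What else set the sums apart was not tested.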

Other observations

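Symbols that begin with Il but lie outside the naming rule belong to proteins that are not interleukins. Ilf2, an RNA-binding protein named after the interleukin enhancer, had an FPKM of 114 in CTRL against 191 in IR12. Ilk, a kinase of integrin adhesions, had 45.9 and 68.0. As deposited these genes were within 2-fold, and on the TPM scale Ilf2 and Ilk had log2 ratios of 1.37 and 1.19.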
